A study of Mus musculus with 8 samples.

Results

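The genes described here are 34 genes of glycolysis and of the response to low oxygen, followed through the cell classes of mouse brains that carried a GL261 glioma. They were taken as a list by function, chosen with earlier results of these data known. The list holds 13 glycolytic enzymes, 3 genes of glucose entry and control of glycolytic flux, 4 lactate enzymes and transporters, 3 genes of oxygen sensing, 3 hypoxia-induced mitochondrial proteins and 8 other hypoxia-induced genes. All 34 were found among the 32502 genes of the count tables and among the 18473 genes kept after filtering. Their levels are given as CPM, the UMIs (molecules) of a gene per 1000000 UMIs of a cell class in 1 library.

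Glycolysis splits glucose into pyruvate in the cytosol, and lactate dehydrogenase reduces pyruvate to lactate, which monocarboxylate transporters carry across the membrane. When oxygen is short, the prolyl hydroxylases that mark the transcription factor subunit HIF-1α for breakdown slow down, and HIF-1α accumulates. It then binds hypoxia response elements, with the core letters ACGTG or GCGTG, near genes of glycolysis, lactate export, mitophagy and pH control. Gliomas are known for hypoxic zones and for making lactate in the presence of oxygen, while astrocytes of the healthy brain also carry out glycolysis.

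The study sequenced single cells of naïve brains and of GL261 tumours by Drop-seq, a droplet method that tags the 3′ end of each mRNA molecule with a cell barcode and a molecular identifier. GL261 is a mouse glioma line, implanted here into the brain of C57BL/6 mice (C57BL/6N in the study's methods) that were wild type (WT, Irg1/Acod1 +/+) or Acod1 KO (Irg1/Acod1 -/-). The KO allele carries an inserted cassette in Acod1, the gene of the enzyme that makes itaconate, in every cell of the host, whereas the implanted GL261 cells do not carry it. The stages are tumour volumes of 5 to 10 mm3 (early), 20 to 25 mm3 (intermediate) and 30 to 35 mm3 (late).

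Each of the 8 libraries was the only one of its genotype and condition. The 6 tumour-bearing libraries (WT early, WT intermediate, WT late, KO early, KO intermediate and KO late) came from 1 mouse each, with tissue cut from the tumour core, and the WT naïve and KO naïve libraries came from 2 pooled untreated mice each. The tumour-bearing hosts were female in WT early and KO intermediate and male in WT intermediate, KO early, WT late and KO late, so that sex differed between the genotypes at the early and intermediate stages. The age of the mice is not given in the sources used here. All p-values below measure the spread between single libraries.

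The tables held between 2885345 and 9950713 UMIs for 3000 barcodes each, and 454 to 1000 cells per library were kept, with a median of 2597.5 to 5637.5 UMIs per cell. Of the barcodes of the 5698 cells, 2 appeared in more than 1 library. Clusters built without the 34 genes and without the other lists used below were named from marker genes as tumour-like (3397 cells), macrophage-like (476), microglia-like (381), oligodendrocyte-like (366) and astrocyte-like (287) cells, and the suffix is dropped in what follows. A count of 0 allows a level of up to 3 UMIs, which is 4.96 to 33.4 CPM in the macrophage sums, 11.1 to 173 in those of microglia and 42.6 to 159 in those of astrocytes with a tumour. The tumour-like class included 3 cells of WT naïve and 2 of KO naïve. Every class had the highest summed level of its own marker list, which is no separate check, as the clusters were named from these lists. In the tumour cluster 5 of 8 tumour markers were detected. Their mean log2 excess over the other clusters was 2.95, beside 2.17 for the markers of oligodendrocyte precursors. In the other classes named above the own list had 5.62 to 6.84. The microglia list of 13 markers reached 26891 to 32956 CPM in microglia and 8270 to 11188 in macrophages, and the macrophage list of 12 markers reached 2049 to 6196 in microglia and 25542 to 33669 in macrophages. Acod1 itself was counted 96, 3 and 1 times in macrophages of the WT early, intermediate and late libraries and 27, 5 and 30 times in those of the KO libraries, and 44, 2 and 3 times in microglia of the WT libraries and 0, 1 and 3 times in those of the KO libraries. As the KO macrophages held Acod1 UMIs, transcripts read at the 3′ end do not check the genotype labels. A set of 4 tumour cell markers (Col9a1, Col11a1, Dppa2 and Gm14139) was also counted in other classes, at 0.599% to 26.7% of their level in the tumour cells of the same library, with the highest share in KO late microglia.

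Because many of these genes are known targets of HIF-1, the promoters of 8 members that carry the results below are shown first. Each is the RefSeq window of 250 bases before and 50 bases after the start of transcription on GRCm38.p6, printed 5′ to 3′ on the strand of the gene, with each ACGTG, read on either strand (CACGT on the printed one), in capitals. Ldhb, the other lactate dehydrogenase gene, is set beside them as a promoter without such a match.
Ldha, chr7:46845554-46845853, plus strand: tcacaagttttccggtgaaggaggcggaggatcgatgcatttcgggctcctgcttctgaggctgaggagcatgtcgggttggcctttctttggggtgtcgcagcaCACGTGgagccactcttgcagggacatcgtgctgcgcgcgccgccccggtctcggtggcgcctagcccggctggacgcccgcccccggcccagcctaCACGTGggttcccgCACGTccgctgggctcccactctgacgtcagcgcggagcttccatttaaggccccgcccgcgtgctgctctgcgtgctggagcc
Slc16a3, chr11:120948817-120949116, plus strand: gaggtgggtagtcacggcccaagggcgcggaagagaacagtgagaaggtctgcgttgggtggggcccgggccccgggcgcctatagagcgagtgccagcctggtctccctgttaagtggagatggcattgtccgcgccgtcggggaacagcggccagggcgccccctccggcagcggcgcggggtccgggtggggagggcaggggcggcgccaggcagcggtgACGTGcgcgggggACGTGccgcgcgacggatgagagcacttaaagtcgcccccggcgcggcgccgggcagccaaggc
Pgk1, chrX:106186850-106187149, plus strand: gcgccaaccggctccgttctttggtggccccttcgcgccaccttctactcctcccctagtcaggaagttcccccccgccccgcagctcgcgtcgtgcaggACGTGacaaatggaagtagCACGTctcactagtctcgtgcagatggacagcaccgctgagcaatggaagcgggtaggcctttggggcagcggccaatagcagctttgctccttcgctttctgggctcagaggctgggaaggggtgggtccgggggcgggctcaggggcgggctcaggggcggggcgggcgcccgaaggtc
Egln3, chr12:54203825-54204124, minus strand: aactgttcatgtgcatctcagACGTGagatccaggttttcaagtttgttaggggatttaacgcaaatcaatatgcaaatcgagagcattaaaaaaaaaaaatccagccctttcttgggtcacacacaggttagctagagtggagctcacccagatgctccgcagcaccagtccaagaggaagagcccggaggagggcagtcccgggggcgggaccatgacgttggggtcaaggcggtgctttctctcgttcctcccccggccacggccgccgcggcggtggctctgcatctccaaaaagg
Bnip3, chr7:138909457-138909756, minus strand: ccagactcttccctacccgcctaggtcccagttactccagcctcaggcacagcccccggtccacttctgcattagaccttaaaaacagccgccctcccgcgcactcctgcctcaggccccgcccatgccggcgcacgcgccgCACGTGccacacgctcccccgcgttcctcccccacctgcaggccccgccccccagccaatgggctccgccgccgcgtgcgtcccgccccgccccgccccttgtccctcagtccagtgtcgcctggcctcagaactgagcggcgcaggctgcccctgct
Ankrd37, chr8:45999801-46000100, minus strand: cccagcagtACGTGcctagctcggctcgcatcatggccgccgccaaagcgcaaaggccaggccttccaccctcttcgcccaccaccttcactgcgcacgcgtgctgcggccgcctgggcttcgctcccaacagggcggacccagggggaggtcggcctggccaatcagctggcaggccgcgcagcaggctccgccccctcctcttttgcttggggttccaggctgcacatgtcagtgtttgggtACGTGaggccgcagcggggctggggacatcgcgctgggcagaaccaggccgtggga
P4ha1, chr10:59323046-59323345, plus strand: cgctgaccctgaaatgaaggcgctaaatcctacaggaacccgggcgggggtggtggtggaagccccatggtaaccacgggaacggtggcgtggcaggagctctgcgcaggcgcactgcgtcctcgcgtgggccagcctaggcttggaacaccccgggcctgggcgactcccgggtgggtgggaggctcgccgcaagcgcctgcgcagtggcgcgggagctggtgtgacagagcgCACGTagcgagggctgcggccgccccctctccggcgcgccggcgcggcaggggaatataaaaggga
Car9, chr4:43506776-43507075, plus strand: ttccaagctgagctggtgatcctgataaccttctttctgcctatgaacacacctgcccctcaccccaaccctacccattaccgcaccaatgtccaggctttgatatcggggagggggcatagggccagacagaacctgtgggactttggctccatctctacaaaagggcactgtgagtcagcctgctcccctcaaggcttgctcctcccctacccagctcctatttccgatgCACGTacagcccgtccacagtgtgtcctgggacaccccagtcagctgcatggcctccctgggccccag
Ldhb, chr6:142507908-142508207, minus strand: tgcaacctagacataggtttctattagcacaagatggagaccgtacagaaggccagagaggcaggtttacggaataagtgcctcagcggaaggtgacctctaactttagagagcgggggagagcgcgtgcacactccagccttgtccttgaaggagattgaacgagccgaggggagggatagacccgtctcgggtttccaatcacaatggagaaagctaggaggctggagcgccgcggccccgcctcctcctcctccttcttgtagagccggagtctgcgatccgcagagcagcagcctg
The 300-base window of Ldha held 5 matches, counting both strands of the palindrome CACGTG, in 3 stretches that began 145, 48 and 34 bases before the start of transcription. The Slc16a3 window held 2, at 27 and 14 bases before the start, and the Car9 window held 1, at 18 bases before it. Of the 34 members, 31 had a promoter in the RefSeq table (not Slc2a3, Bnip3l or Ndrg1), and 23 of the 31 had at least 1 match. The 8 without one were Ldhb, Eno1, Tpi1, Gpi1, Pfkp, Pfkl, Pdk1 and Adm, so that a match did not go with one order among the cell classes: Eno1, Tpi1, Gpi1 and Pfkp were higher in macrophages than in microglia, as Ldha was, and Hk2 and Pfkfb3, which have matches, were lower. Counted by window, since some genes have several start sites, 26 of 43 member windows (60.5%) held a match, against 19.6% of all 32851 windows, and among windows with at least 10 CG pairs it was 23 of 35 (65.7%) against 28.0% of 14281. All 3 genes of oxygen sensing had a match, as did 8 of 13 glycolytic enzymes and 6 of the 7 other hypoxia-induced genes with a window. A match describes the letters of the window and does not show that a factor binds there. Only ACGTG was searched, and a window without a match can hold the GCGTG form of the core, as the Ldhb window does.

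**Figure D1:**
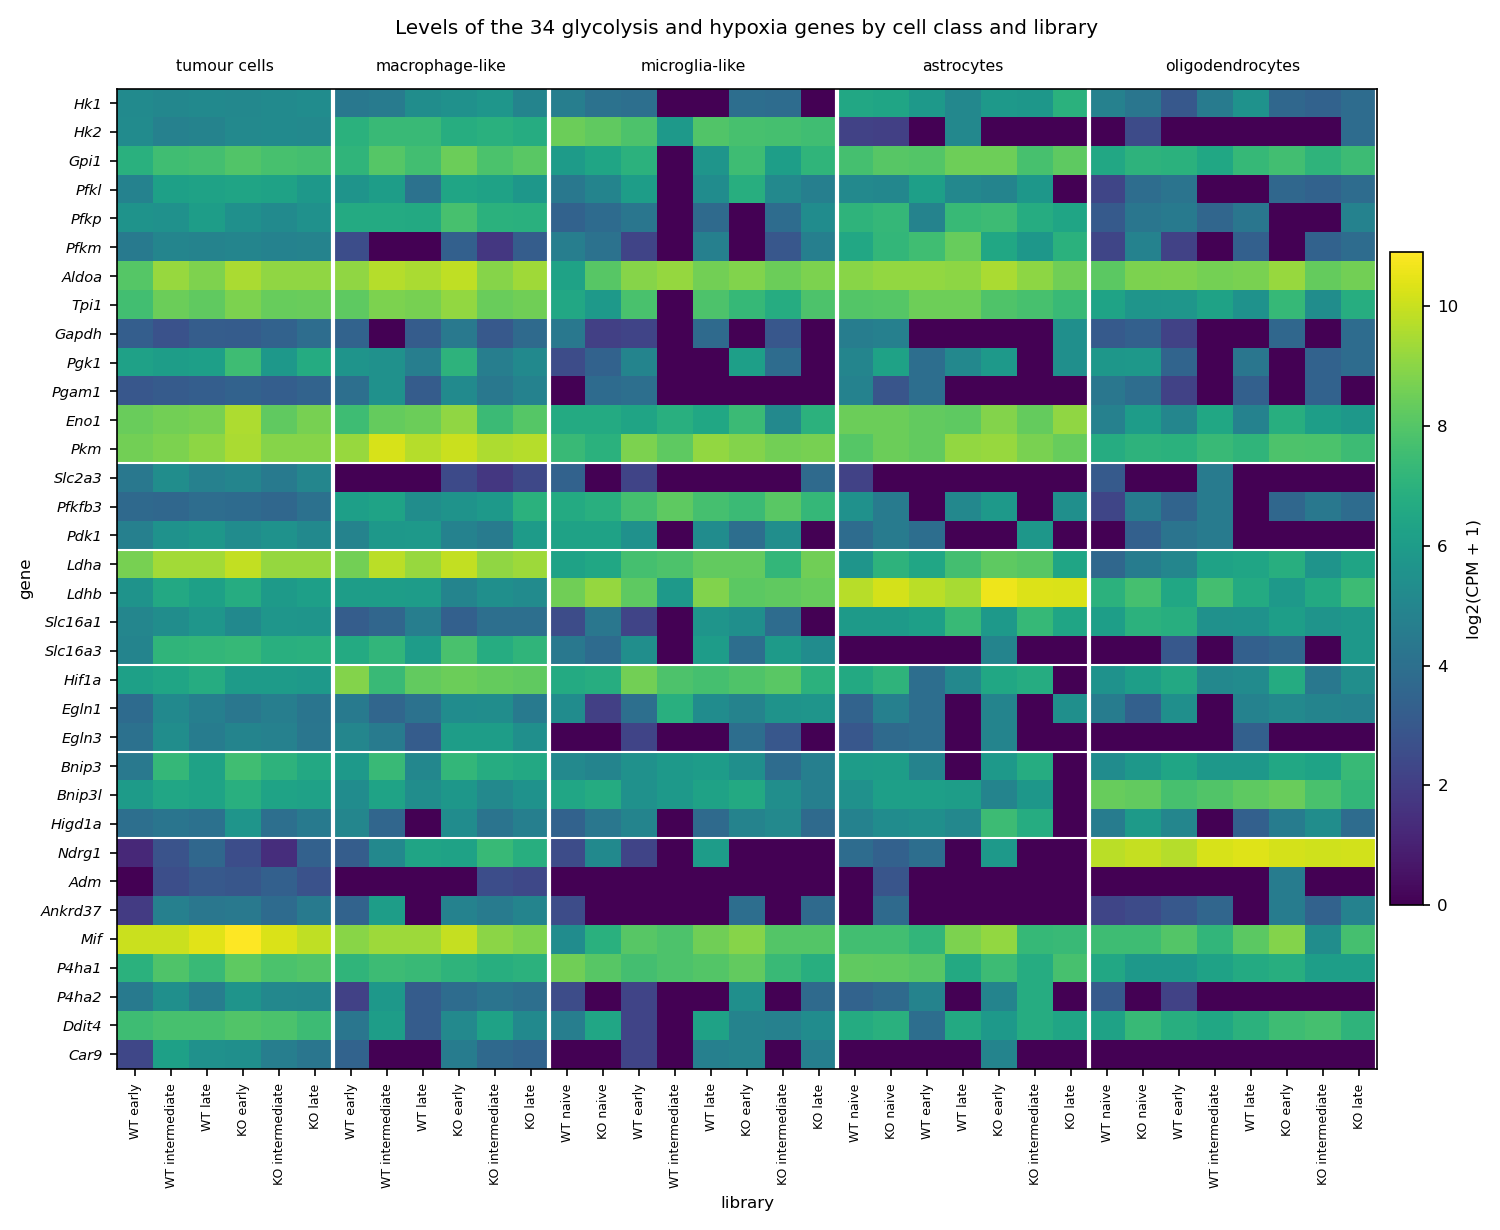
Level of each of the 34 genes (vertical axis, grouped by role) in each library of each cell class (horizontal axis), as log2 of CPM + 1. Mif, Ldha, Pkm and Aldoa are bright across tumour cells and macrophages, Ldhb is brightest in astrocytes with a median of 1250 CPM, and Ndrg1 in oligodendrocytes with a median of 1150.

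The sum of all 34 genes had its highest median in tumour cells, at 5237 CPM over the 6 tumour-bearing libraries (lowest 3711, highest 7691). Macrophages had a median of 5032 (4130 to 7364), astrocytes 4547 (3862 to 6159, 5 libraries with at least 5 cells), microglia 3362 (2539 to 4024) and oligodendrocytes 3215 (2832 to 4148). The ranges of tumour cells, macrophages and astrocytes overlapped widely, whereas every macrophage library lay above every microglia library. The 13 glycolytic enzymes alone were highest in macrophages, with a median of 2807 (2133 to 4073), followed by tumour cells with 2205 (1557 to 3309) and astrocytes with 2158 (1956 to 2813). Microglia, with a median of 1625 (1039 to 1836), stayed under every macrophage library, and oligodendrocytes had a median of 868 (843 to 1318). By gene, the highest median lay in tumour cells for 14 members, in macrophages for 9, in astrocytes for 6, in microglia for 3 and in oligodendrocytes for 2.

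Cell classes were compared over the 6 tumour-bearing libraries with UMIs summed per class and library, the library as a block, edgeR's quasi-likelihood test and Benjamini-Hochberg adjustment over all 4022 genes that passed the filter on low counts. The 5 comparisons below share these sums. In that fit 18 members passed the filter, and 16 did not: Adm, Ankrd37, Car9, Egln1, Egln3, Gapdh, Higd1a, Hk1, P4ha2, Pdk1, Pfkl, Pfkm, Pgam1, Pgk1, Slc16a1 and Slc2a3. A low gene that passes through the one class where it is high is likely to be called, so the counts are given for the 18 tested members and, from a fit of 18451 genes without the filter, for all 34. In both, a count is read beside the share of all genes called in the same direction.

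Tumour cells held more Ddit4, Eno1, Mif, Pfkp and Ldha than microglia and less Pfkfb3, Hk2, Ldhb and Hif1a. In this comparison 5 of the 18 tested members were higher (all genes, 36.1%) and 4 were lower (all genes, 29.6%), so that neither share of members exceeded the background. Their median log2 difference was 0.36 beside 0.20 over all genes tested. Without the filter, 18 of 34 were higher (all genes, 23.7%) and 4 were lower (all genes, 12.6%), with a median of 1.07 beside 0.74 over all genes. Scaling to total UMIs in place of the trimmed mean of M-values (TMM) moved the median over all genes by 0.41 and the share of higher genes among all calls from 54.9% to 67.9%, and 10 members were then higher and 4 lower.

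Macrophages exceeded microglia in 6 of the 7 tested glycolytic enzymes (Pfkp, Eno1, Tpi1, Gpi1, Pkm and Aldoa), in Ldha and the lactate exporter Slc16a3, and in Ndrg1 and Mif, and held less Ldhb, Pfkfb3 and Hk2. Thus 10 of 18 were higher (all genes, 11.8%) and 3 were lower (all genes, 9.87%). The members' median difference was 0.97 on the log2 scale beside 0.07 over all genes. Without the filter the counts were 16 of 34 higher (all genes, 5.6%) and 2 lower (all genes, 3.28%), with a median of 1.07 beside 0.17. Here the share of members called higher stood above the background under both filters. As the members were chosen with earlier results of these data known, this excess describes the list and is not an independent test.

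Glia were taken as the mean of astrocytes and oligodendrocytes. These classes differed for some members, so that a call against their mean need not hold against each. The medians in astrocytes and oligodendrocytes were 317 and 61.5 CPM for Eno1 (macrophages 292) and 106 and 14.7 for Pfkp (macrophages 110). They were 1250 and 99.7 for Ldhb, and 52.9 and 229 for Bnip3l. Slc16a3 (3.46 on the log2 scale), Hk2 (3.30), Ldha (2.31), Mif (2.15), Eno1 (1.25), Ddit4 (0.94), Tpi1 (0.88), Pkm (0.64) and P4ha1 (0.54) were higher in tumour cells than in glia, and Ndrg1 (-4.93), Ldhb (-2.53) and Bnip3l (-0.68) were lower. Tumour cells thus had 9 of 18 members higher than glia (all genes, 37.3%) and 3 lower (all genes, 26.1%), with a median of 0.53 beside 0.30, and without the filter 19 of 34 higher (all genes, 31.3%) and 2 lower (all genes, 9.4%), with a median of 1.21 beside 1.16. In macrophages Hk2 (5.55), Slc16a3 (4.05), Hif1a (2.92), Ldha (2.66), Pfkfb3 (2.10), Pfkp (1.86), Pkm (1.73), Tpi1 (1.5), Mif (1.43), Eno1 (1.01) and Aldoa (0.57) were higher than in glia, and Ldhb (-2.79), Ddit4 (-1.21) and Bnip3l (-1.20) were lower. Macrophages thus had 11 of 18 higher than glia (all genes, 37.6%) and 3 lower (all genes, 26.3%), with a median of 1.22 beside 0.22, and without the filter 21 of 34 higher (all genes, 23.7%) and 3 lower (all genes, 11.3%), with a median of 1.89 beside 0.62. Hk2 was listed at 0 in most glia sums, at up to 32.7 CPM in astrocytes and 13.6 in oligodendrocytes, so that the size of its fitted difference from glia is imprecise. The calls for Bnip3l in both comparisons and for Ddit4 in macrophages were not made without the filter.

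Tumour cells held more Ddit4, Mif and Bnip3l than macrophages (2.15, 0.73 and 0.51 on the log2 scale) and less of 6 of the 7 tested glycolytic enzymes, of Ldha and Slc16a3, and of Pfkfb3, Hif1a and Ndrg1. In counts, 3 of 18 members were higher in tumour cells (all genes, 37.3%) and 11 were lower (all genes, 32.3%), with a median of -0.59 beside 0.15 over all genes. This split depended on the scaling: with total UMIs, which moved the median of all genes by 0.43 and the share of higher genes among calls from 53.6% to 68.7%, 6 members were higher and 6 lower. Without the filter, 8 of 34 were higher (all genes, 28.9%) and 10 lower (all genes, 16.1%), with a median of -0.21 beside 0.46, and Gpi1, Tpi1, Ldha and Slc16a3 no longer passed.

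**Figure D2:**
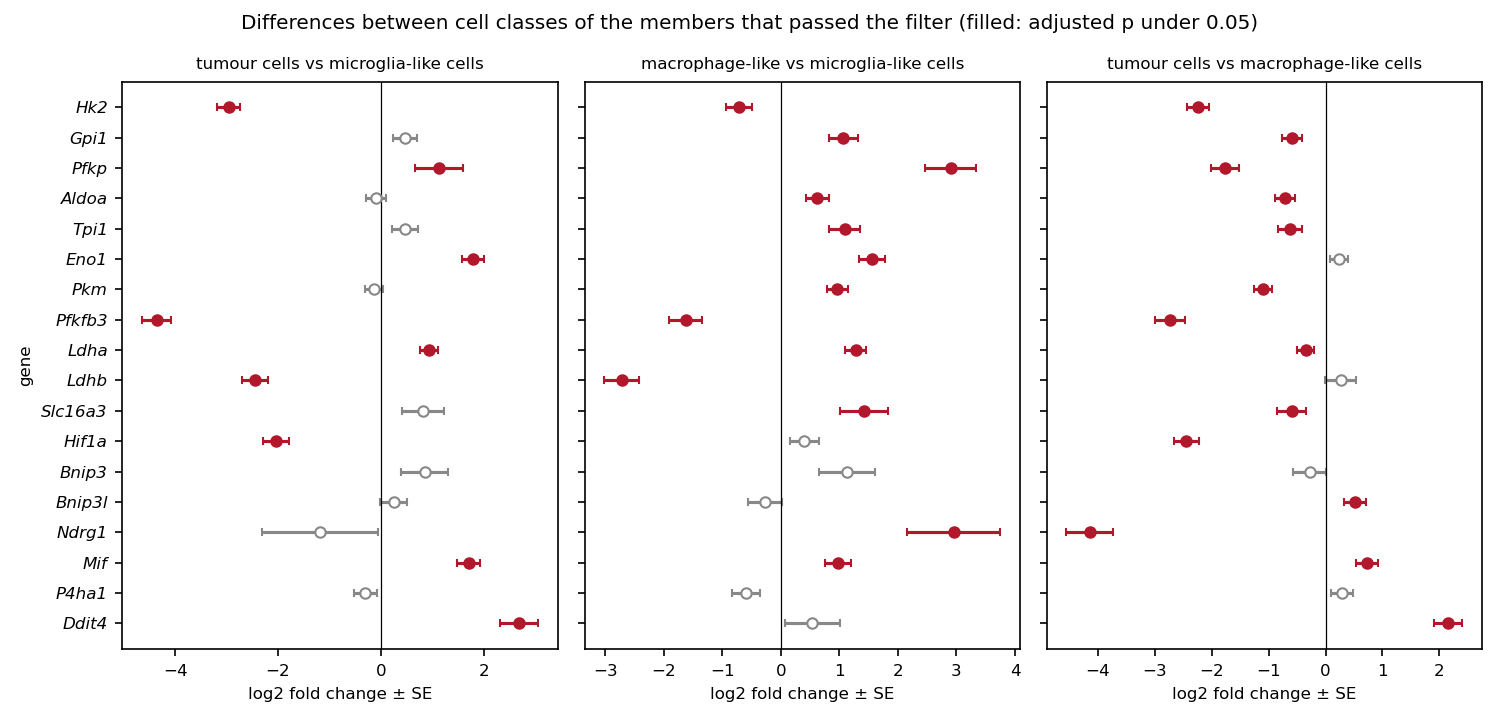
Log2 differences of the 18 members that passed the filter (vertical axis) in the 3 comparisons among tumour cells, macrophages and microglia, with points for the estimates, bars for the SE and filled points for an adjusted p under 0.05. Against microglia, Ldhb lies at -2.46 in tumour cells and -2.72 in macrophages, and Ldha at 0.93 and 1.28.

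Among the glycolytic enzymes, Hk2, one of the hexokinases that trap glucose in the cell, set the myeloid cells apart. Its level was 26.9 to 37.3 CPM in the tumour cells of the 6 libraries (median 34.3), 106 to 169 in macrophages (median 122), and 57.7 to 242 in microglia (median 207). Tumour cells did not overlap either myeloid class, and macrophages overlapped microglia. Hk2 was lower in tumour cells than in microglia by a log2 difference of -2.96 ± 0.22 (SE, adjusted p = 9.4e-13) and lower than in macrophages by -2.24 ± 0.19 (adjusted p = 1.8e-11). It was lower in macrophages than in microglia by -0.72 ± 0.22 (adjusted p = 0.020), a call not made without the filter (-0.46, adjusted p = 0.31). Its median was 0 in both astrocytes and oligodendrocytes. Hk1, the hexokinase of most tissues, had the other order, with medians of 56.8 in astrocytes, 35.3 in tumour cells, 34.7 in macrophages, 12.5 in oligodendrocytes and 6.75 in microglia. In the fit without the filter Hk1 was higher in tumour cells than in microglia by 1.71 ± 0.52 (adjusted p = 0.0048) and in macrophages by 1.91 ± 0.55 (adjusted p = 0.010).

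Of the phosphofructokinases, which catalyse the committed step of glycolysis, Pfkp had its highest median in macrophages, at 96.4 to 212 CPM (median 110). It was at 0 to 37.9 in microglia (median 13.1) and 36.2 to 66.3 in tumour cells (median 45.1). Astrocytes, at 28.4 to 178 (median 106), overlapped macrophages. The macrophage libraries lay above every listed level of microglia and tumour cells, although a count of 0 in the smallest microglia sum allows a level within their range. The log2 difference between macrophages and microglia was 2.90 ± 0.44 (adjusted p = 7.0e-06). Tumour cells were lower than macrophages by -1.77 ± 0.24 (adjusted p = 2.0e-07). Pfkm was counted mostly in astrocytes (median 125) and tumour cells (28.3) and hardly in macrophages (3.71), and without the filter it was higher in tumour cells than in macrophages by 2.01 ± 0.42 (adjusted p = 1.9e-05). Pfkl had similar medians in tumour cells (74.7) and macrophages (60.5) and was higher than in glia in both without the filter, by 1.83 ± 0.39 and 1.96 ± 0.41.

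Pkm, Aldoa, Eno1 and Tpi1 were the most abundant glycolytic enzymes by median in tumour cells and macrophages. Eno1, enolase, was counted at 298 to 747 CPM in tumour cells (median 389), 169 to 537 in macrophages (median 292) and 33.7 to 169 in microglia (median 102). Tumour cells did not overlap microglia, and the lowest macrophage library met the highest microglia library. Eno1 was higher than in microglia by 1.80 ± 0.22 in tumour cells (adjusted p = 2.2e-08) and by 1.56 ± 0.23 in macrophages (adjusted p = 3.6e-06). Pkm, pyruvate kinase, was highest in macrophages, at 602 to 1213 (median 815), beside 383 to 725 in tumour cells (median 485) and 288 to 561 in microglia (median 417). Every macrophage library lay above every microglia library. Pkm was higher in macrophages by 0.96 ± 0.18 (adjusted p = 0.00014), while the difference between tumour cells and microglia was -0.13 ± 0.17 (adjusted p = 0.52). Aldoa, Tpi1 and Gpi1 were also higher in macrophages than in microglia, by 0.62, 1.09 and 1.06, and lower in tumour cells than in macrophages, by -0.72, -0.62 and -0.59, calls that were not made for the second comparison when total UMIs set the scale.

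Pgk1, phosphoglycerate kinase, was highest in tumour cells, at 55.6 to 182 (median 72.0), and exceeded microglia without the filter by 2.03 ± 0.40 (adjusted p = 6.3e-06). Pgam1 was low everywhere and highest in macrophages, with a median of 23.4 beside 8.54 in tumour cells. Gapdh, elsewhere among the most abundant mRNAs of a cell, was counted at medians of only 8.40 in tumour cells and 8.98 in macrophages. Of the windows of 50 bases in the last 500 bases of the Gapdh transcripts, 63.2% also occur in transcripts of other genes, 191 of them pseudogenes, so the count of this gene is uncertain. The same share was 68.1% for Eno1 and 56.1% for Mif, and no more than 29.2% for any other member.

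**Figure D3:**
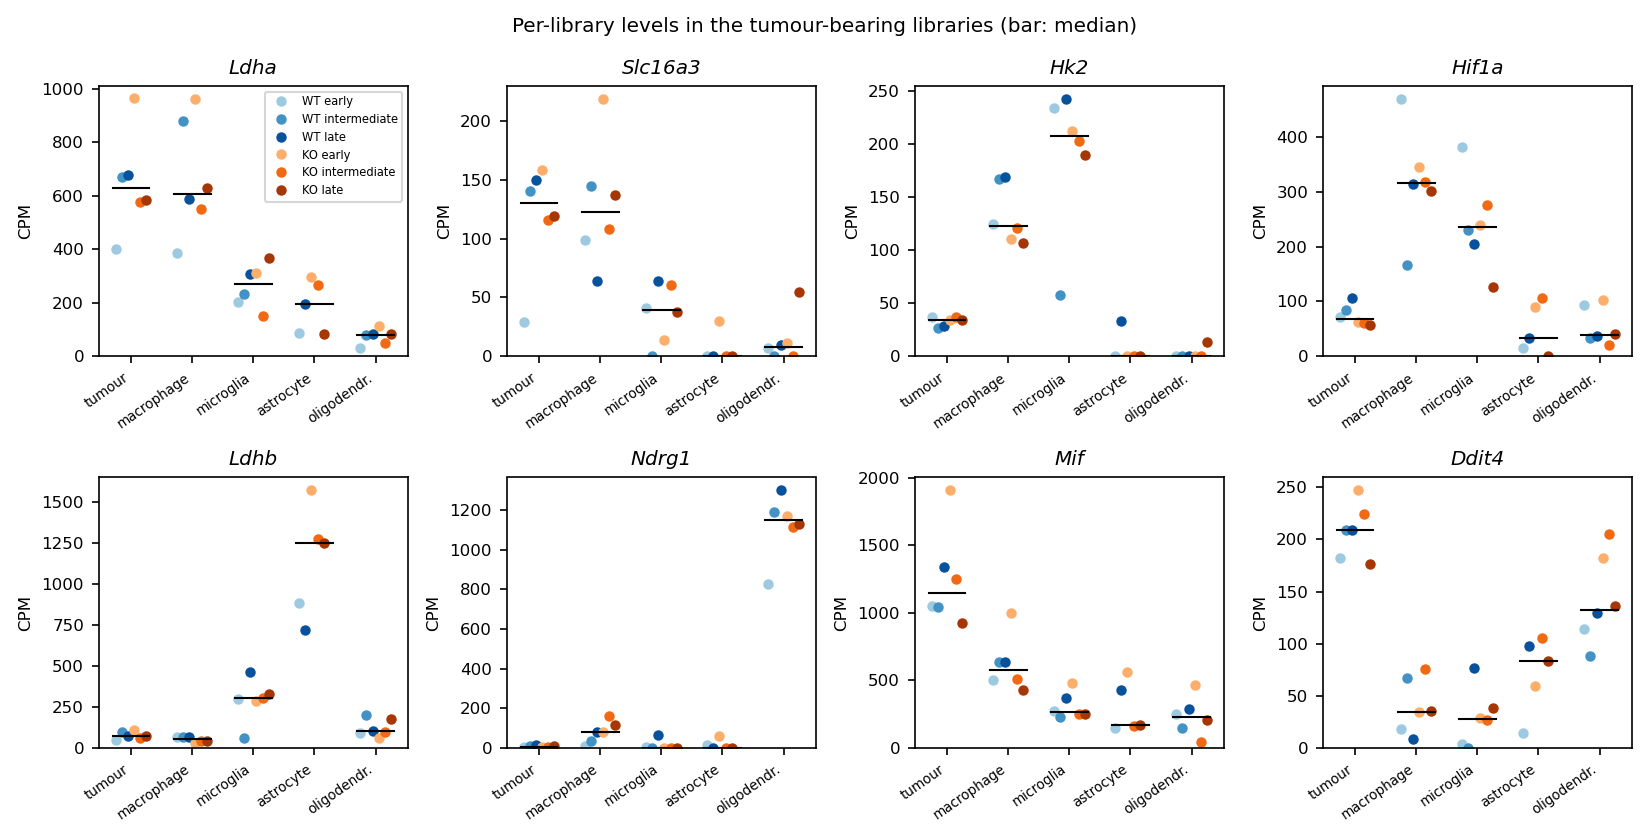
Levels of 8 members in CPM (vertical axis) for each tumour-bearing library (points, coloured by genotype and stage) of each cell class (horizontal axis), with bars for the medians. The Hif1a and Hk2 points of tumour cells lie below those of both myeloid classes, whereas the Ldha points of tumour cells and macrophages lie above those of microglia.

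The genes of glucose entry and flux control divided the classes further. Pfkfb3 makes fructose-2,6-bisphosphate, the activator of phosphofructokinase, and its level was 11.4 to 15.6 CPM in tumour cells (median 12.6), 40.2 to 123 in macrophages (median 63.7) and 152 to 288 in microglia (median 206). These 3 ranges did not overlap. Tumour cells were lower than microglia by -4.36 ± 0.28 (adjusted p = 3.8e-14), the largest difference of any tested member in that comparison, and macrophages were lower than microglia by -1.63 ± 0.28 (adjusted p = 5.5e-05). Slc2a3, the glucose transporter GLUT3, was at 19.7 to 40.0 in tumour cells and at medians of 1.23 in macrophages and 0 in microglia. Without the filter, Slc2a3 was higher in tumour cells than in macrophages by 3.21 ± 0.51 (adjusted p = 2.4e-08). Pdk1, a kinase that keeps pyruvate out of the mitochondrion, had medians of 41.9 in both tumour cells and macrophages and 26.2 in microglia, and was higher than in glia without the filter in tumour cells, by 2.22 ± 0.51, and in macrophages, by 2.41 ± 0.54.

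The 2 lactate dehydrogenase subunits differed in their order among the classes, with Ldha highest in tumour cells and macrophages and Ldhb in astrocytes. Ldha, whose subunit favours making lactate, was counted at 401 to 964 CPM in tumour cells (median 628) and at 385 to 962 in macrophages (median 608). It was at 148 to 367 in microglia (median 268), 83.3 to 296 in astrocytes (median 196) and 31.2 to 114 in oligodendrocytes (median 79.5). Both tumour cells and macrophages lay above all libraries of the other 3 classes. Ldha was higher than in microglia by 0.93 ± 0.17 in tumour cells (adjusted p = 3.2e-05) and by 1.28 ± 0.18 in macrophages (adjusted p = 2.1e-06). Against glia the differences were 2.31 ± 0.17 (adjusted p = 1.7e-12) and 2.66 ± 0.18 (adjusted p = 1.2e-13). Between tumour cells and macrophages Ldha differed by -0.35 ± 0.15 (adjusted p = 0.042), and with total-UMI scaling the estimate turned to 0.08 (adjusted p = 0.63). Ldhb, whose subunit favours turning lactate back into pyruvate, was highest in astrocytes, at 719 to 1569 (median 1250), and its astrocyte libraries lay above those of every other class. Its medians were 300 in microglia, 99.7 in oligodendrocytes, 71.2 in tumour cells and 53.0 in macrophages. Ldhb was lower than in microglia by -2.46 ± 0.25 in tumour cells (adjusted p = 9.6e-10) and by -2.72 ± 0.29 in macrophages (adjusted p = 2.7e-08).

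The lactate transporters also differed. Slc16a3 (MCT4), which exports lactate, was at 29.5 to 158 CPM in tumour cells (median 130), 64.3 to 219 in macrophages (median 123) and 0 to 63.7 in microglia (median 39.3). Every macrophage library lay above every listed microglia level, and WT early tumour cells, at 29.5, were the only tumour library within that microglia range. A count of 0 in the smallest microglia sum would allow a level within the range of macrophages. Slc16a3 was higher in macrophages than in microglia by 1.41 ± 0.41 (adjusted p = 0.012), and in tumour cells than in glia by 3.46 ± 0.60 (adjusted p = 1.0e-05). The difference between tumour cells and microglia was 0.82 ± 0.40 (adjusted p = 0.076), and it passed the threshold when WT early was left out. Slc16a1 (MCT1) was highest in astrocytes (median 83.3) and oligodendrocytes (51.7), with 45.5 in tumour cells and 12.9 in macrophages. Without the filter it was higher in tumour cells than in macrophages by 1.56 ± 0.34 (adjusted p = 3.8e-05).

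Hif1a, the gene of the oxygen-regulated subunit itself, is controlled mainly after translation. Its mRNA was lowest in tumour cells among the tumour and myeloid classes, at 56.9 to 106 CPM (median 67.2), against 167 to 470 in macrophages (median 316) and 126 to 381 in microglia (median 235). Tumour cells overlapped neither myeloid class. The log2 difference was -2.44 ± 0.22 against macrophages (adjusted p = 2.6e-11) and -2.05 ± 0.25 against microglia (adjusted p = 3.5e-08), while macrophages and microglia differed by 0.40 ± 0.24 (adjusted p = 0.27). Egln3, an oxygen-sensing prolyl hydroxylase that HIF itself induces, was at 15.6 to 39.2 in tumour cells (median 25.1), 8.04 to 66.2 in macrophages (median 36.5) and 0 to 14.1 in microglia (median 1.85). Tumour cells lay above all listed microglia levels, and macrophages overlapped microglia through WT late, at 8.04. A count of 0 in the smallest microglia sum allows a level above both ranges, so that it cannot be ranked. Without the filter Egln3 was higher than in microglia by 2.31 ± 0.69 in tumour cells (adjusted p = 0.0040) and by 3.39 ± 0.65 in macrophages (adjusted p = 2.1e-05). Egln1, the main oxygen sensor, had its highest median in microglia, at 42.7, beside 21.8 in tumour cells and 21.2 in macrophages.

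Of the mitochondrial proteins, Bnip3, a mitophagy receptor, had medians of 113 CPM in tumour cells and 101 in macrophages, with wide ranges of 20.3 to 187 and 32.1 to 167. Microglia were at 13.5 to 63.7 (median 43.4), which overlapped both. None of the 5 class comparisons passed for Bnip3 with the filter on low counts (adjusted p from 0.092 to 0.39). Without it Bnip3 was higher than in microglia in tumour cells, by 1.25 ± 0.37 (adjusted p = 0.0037), and in macrophages, by 1.41 ± 0.38 (adjusted p = 0.0065). Bnip3l, its paralogue, was highest in oligodendrocytes, at 150 to 341 (median 229), and was lower than in glia by -0.68 ± 0.27 in tumour cells (adjusted p = 0.028) and by -1.20 ± 0.31 in macrophages (adjusted p = 0.0012). The astrocyte median of Bnip3l was 52.9, below the tumour cells of every library (62.0 to 116). Higd1a had its highest median in astrocytes, at 42.6, over a range of 0 to 178.

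Mif, a secreted cytokine that HIF can induce, was the most abundant member in tumour cells, at 926 to 1909 CPM (median 1150). Macrophages were at 429 to 996 (median 572) and microglia at 231 to 480 (median 262). Tumour cells lay above all microglia libraries and above the macrophages of their own library in all 6, and the ranges overlapped only in that KO late tumour cells, at 926, lay below KO early macrophages, at 996. Mif was higher in tumour cells by 1.70 ± 0.22 against microglia (adjusted p = 9.1e-08) and by 0.73 ± 0.20 against macrophages (adjusted p = 0.0017), and higher in macrophages than in microglia by 0.98 ± 0.22 (adjusted p = 0.0015). Ddit4, an inhibitor of mTORC1 signalling that stress and glucocorticoids also induce, was at 177 to 247 in tumour cells (median 209), above every library of macrophages (8.04 to 76.0) and microglia (0 to 76.5), while oligodendrocytes (88.3 to 206) reached into its range. It was higher in tumour cells than in microglia by 2.69 ± 0.37 (adjusted p = 2.6e-07) and than in macrophages by 2.15 ± 0.25 (adjusted p = 8.1e-09). P4ha1, a collagen prolyl hydroxylase subunit, passed in 1 comparison, at 0.54 ± 0.22 in tumour cells over glia (adjusted p = 0.037), and P4ha2 was higher in tumour cells than in macrophages by 1.02 ± 0.34 without the filter (adjusted p = 0.0095).

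Car9, the membrane carbonic anhydrase often used as a marker of hypoxic tumour tissue, was at 4.07 to 73.3 CPM in tumour cells (median 33.4). Its median was 10.2 in macrophages and 14.5 in microglia, and it was listed at 0 in the oligodendrocytes of all 6 tumour-bearing libraries and in microglia of both naïve libraries. In those oligodendrocytes a count of 0 allows up to 10.4 to 40.9 CPM, so that a level like that of tumour cells could be told from 0 in some libraries only. Without the filter Car9 was higher than in glia in tumour cells, by 5.31 ± 0.99 (adjusted p = 2.0e-06), and in macrophages, by 4.47 ± 1.24 (adjusted p = 0.0020). With a single UMI in all astrocyte sums, the size of these differences depends on the prior count of the fit. The differences of tumour cells from microglia (1.15, adjusted p = 0.10) and from macrophages (0.84, adjusted p = 0.052) did not pass. Ankrd37, a small nuclear protein gene induced by HIF, had medians of 19.5 in tumour cells, 24.6 in macrophages and 0 in microglia, and without the filter was higher than in microglia in macrophages, by 2.88 ± 0.81 (adjusted p = 0.0091), and in tumour cells, by 2.07 ± 0.84 (adjusted p = 0.040). Adm, the vasodilator adrenomedullin, stayed below 10 CPM in every tumour library and was listed at 0 in all microglia sums.

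Ndrg1 did not follow the other hypoxia-induced genes. It was counted at 829 to 1301 CPM in oligodendrocytes (median 1150). In macrophages it was at 8.27, 33.4 and 80.4 in the WT early, intermediate and late libraries and at 76.8, 162 and 113 in the KO libraries, and in tumour cells it stayed between 1.36 and 11.6. It was higher in macrophages than in microglia by 2.95 ± 0.79 (adjusted p = 0.0065) and lower in tumour cells than in macrophages by -4.14 ± 0.41 (adjusted p = 3.4e-10). The 8 oligodendrocyte markers were summed to 110 to 1371 CPM in macrophages, at most 1.36% of the oligodendrocyte level, and with none of the 8 at 0 in WT early and KO late. At these shares the oligodendrocytes' Ndrg1 would amount to 1.28 to 15.3 CPM in macrophages, with the highest value in KO late. In microglia Ndrg1 was listed at 0 in 4 of 6 libraries and was at 63.7 in WT late, where the same share would give 70.0.

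The 4 tumour-cell markers give the level that stray tumour RNA could add to another class. At the marker share of each library, the tumour cells' level would amount to a median of 10.9% of the Ldha level of microglia (highest 42.6%), 17.9% of Eno1 (84.5%), 17.4% of Mif (97.9%) and 66.1% of Ddit4 (124%). In macrophages the medians were 4.81% for Ldha, 7.42% for Eno1, 10.4% for Mif and 29.7% for Ddit4, and the share for Hif1a was 0.932% there and 1.83% in microglia. With these amounts subtracted, 9 members in place of 5 were higher in tumour cells than in microglia, with Bnip3, Gpi1, Slc16a3 and Tpi1 added to Ddit4, Eno1, Ldha, Mif and Pfkp. Beyond these subtractions, the part of stray RNA in the class differences was not tested.

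The question of whether resident cells change when a tumour is present was addressed by setting the 6 tumour-bearing libraries against the 2 naïve ones within a class. In microglia, 5 of 13 tested members were higher with a tumour (all genes, 10.1% of 3117) and none was lower (all genes, 7.19%), in an edgeR fit that adjusts for genotype. The members' median difference was 0.98 on the log2 scale beside a median near 0 for all genes tested. With total-UMI scaling, which moved that median by -0.12, the same 5 members were called, while the share of higher genes among all calls fell from 58.4% to 47.1%.

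Mif stood at 38.6 (WT) and 119 (KO) CPM in naïve microglia and at 231 to 480 in the tumour-bearing libraries (median 262), a log2 difference of 1.99 ± 0.41 (adjusted p = 0.0029). Pkm was at 164 and 122 in the naïve libraries and at 288 to 561 (median 417) with a tumour, a difference of 1.61 ± 0.34 (adjusted p = 0.0032). Ldha was at 77.2 and 89.8 against 148 to 367 (median 268), a difference of 1.60 ± 0.37 (adjusted p = 0.0060). In all 3 genes every tumour-bearing library lay above both naïve libraries. The glycolytic aldolase Aldoa was at 77.2 and 269 against 351 to 577 (median 441), and rose by 1.36 ± 0.40 (adjusted p = 0.026). Hif1a was at 101 and 109 against 126 to 381 (median 235), and rose by 1.28 ± 0.39 (adjusted p = 0.031). These groups did not overlap either, although KO late microglia, at 126 for Hif1a, lay close to the naïve level. Of the members with their highest median in microglia, Pfkfb3 was at 101 and 115 in the naïve libraries and at 152 to 289 in the 6 tumour-bearing ones, which did not overlap, and its difference of 0.98 ± 0.34 missed the threshold (adjusted p = 0.053). Pfkfb3 passed under 6 of the alternatives, of which at least 10 cells per sum and leaving out WT intermediate gave the same values. Among the others were no genotype covariate (0.98, adjusted p = 0.037) and cells with at least 500 genes (1.25, adjusted p = 0.013). Without the filter on low counts Pfkfb3 did not pass (0.98, adjusted p = 0.23). Tpi1, also not called in the main fit, passed under several alternatives, among them no genotype covariate (1.29, adjusted p = 0.046) and cells with at least 500 genes (1.61, adjusted p = 0.012). It was not called without the filter either. Hk2 was at 348 and 305 in naïve microglia, and its difference of -0.63 did not pass (adjusted p = 0.18).

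The microglia sums were small, from 5 cells and 17330 UMIs in WT intermediate, where 3 UMIs correspond to 173 CPM, to 63 cells in WT early, with 88 cells in WT naïve and 118 in KO naïve. The calls rested on the naïve libraries: without WT naïve no member was called, and without KO naïve 2 were (Aldoa and Mif). Without the filter on low counts, Aldoa and Hif1a missed the threshold (adjusted p = 0.054 and 0.072). As naïve brains carry no tumour, stray tumour RNA can move with this comparison, and it was estimated in the tumour-bearing libraries only. With its estimated amount subtracted there, 3 members remained called (Hif1a, Ldha and Pkm). Macrophages were also nearly absent from naïve brains, with 2 cells in WT naïve. Their marker list reached 2049 to 6196 CPM in microglia with a tumour. Of the 5 members called, Aldoa, Ldha, Mif and Pkm were also higher in macrophages than in microglia, and Hif1a was not called there. The part of macrophage RNA, or of macrophages named as microglia, was not tested. In astrocytes none of 8 tested members was called (all genes, 1.48%) and in oligodendrocytes none of 11 (all genes, 2.2%), by edgeR with 0 members at an unadjusted p under 0.05 in either and 0 called by DESeq2. Without the filter on low counts, Pgk1 was lower in the oligodendrocytes of tumour-bearing libraries by -2.49 ± 0.68 (adjusted p = 0.024).

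**Figure D4:**
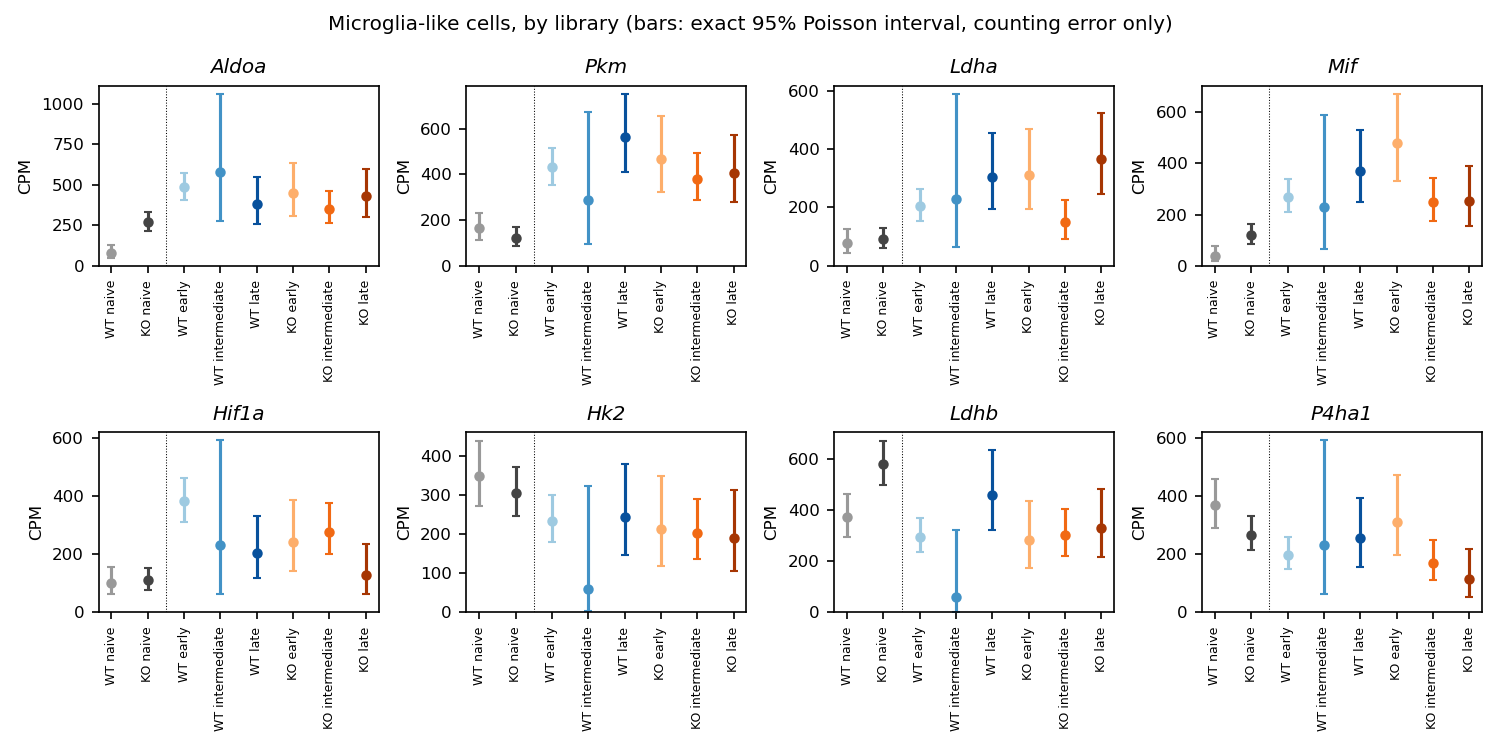
Levels of 8 members in microglia in CPM (vertical axis) in the 2 naïve libraries, left of the dotted line, and the 6 tumour-bearing ones (horizontal axis), with exact 95% Poisson intervals for counting error as bars. For Mif the naïve points are at 38.6 and 119, below the lowest tumour-bearing point at 231.

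Stage was compared as late against early, with 2 libraries a stage and genotype as a covariate. In tumour cells all 34 members could be tested among 14337 genes and none was called (all genes, 0%), with 1 at an unadjusted p under 0.05 in edgeR and 0 called by DESeq2. That gene was Slc16a1, with a difference of 0.59 ± 0.23 (adjusted p = 0.65). In macrophages none of 27 (all genes, 0%) and in microglia none of 11 (all genes, 0.166%) was called, with 2 and 1 members at an unadjusted p under 0.05 and 0 by DESeq2 in either class. The members' medians were 0.08, -0.18 and -0.21.

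The spread between the early libraries was wide. In tumour cells WT early had the lowest level of the 6 libraries for 23 of the 34 members, among them all 4 lactate enzymes and transporters, and KO early had the highest for 18, among them 8 glycolytic enzymes. Ldha in tumour cells was at 401, 670 and 679 CPM in the WT early, intermediate and late libraries and at 964, 577 and 585 in the KO libraries. Car9 was at 4.07, 73.3 and 45.0 in the WT libraries and at 42.0, 24.7 and 18.4 in the KO libraries. Bnip3 was at 20.3, 152 and 76.1 against 187, 133 and 93.7, and Slc16a3 at 29.5, 141 and 150 against 158, 115 and 119. For all 4 genes the WT early tumour was the lowest of the 6, and among the KO libraries the early one was the highest. With KO early left out, 2 members passed the threshold in late against early tumour cells, Car9 at 3.49 and Slc16a3 at 2.29, but the early stage was then the WT early library alone, whose spread is assumed to be that of the other libraries, so that these values compare 1 mouse with the late ones. Stage, mouse, host sex and library preparation cannot be told apart for a single library.

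Genotype was compared as KO against WT with the stage as a block. None of the 34 members in tumour cells (all genes, 0%), of 26 in macrophages (all genes, 0.0688%) and of 10 in microglia (all genes, 0%) was called. At an unadjusted p under 0.05 edgeR gave 2, 2 and 0 members, and DESeq2 called 0 in each class. The largest difference among them was Ndrg1 in macrophages, at 1.87 ± 0.49 (adjusted p = 0.33). Ndrg1 passed with doublets removed (2.72 ± 0.51, adjusted p = 0.032) and without the filter on low counts (2.01 ± 0.45, adjusted p = 0.0031), and KO was above WT at each of the 3 stages. In macrophages Egln3 was at 65.5, 66.2 and 41.7 CPM in the KO early, intermediate and late libraries and at 31.4, 22.3 and 8.04 in the WT libraries, from counts of 29, 27, 20 and 19, 2, 1 UMIs, a difference of 1.35 ± 0.49 (adjusted p = 0.81). Whether a difference between classes differed between genotypes was tested as an interaction, in which none of 34 members passed for tumour cells against microglia (all genes, 0.0718%) and none of 18 for macrophages against microglia (all genes, 0.0301%). In each interaction 2 members had an unadjusted p under 0.05 in edgeR, Bnip3 and Ndrg1, and DESeq2 called 0.

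Within a class, single cells of 1 library were compared after thinning each to 2000 UMIs, which left out 0 to 124 tumour cells per tumour-bearing library as too shallow. Across the tumour cells of a library, the summed UMIs of the 13 glycolytic enzymes were correlated with those of the 11 hypoxia-induced genes (the mitochondrial proteins and the others). Pearson's r was 0.65 in WT intermediate (926 cells), 0.48 in WT late (471), 0.61 in KO early (389), 0.58 in KO intermediate (489) and 0.44 in KO late (408), and 0.14 in WT early (241). The library with the lowest r was also the one with the lowest Car9 level. In macrophages r ran from 0.15 to 0.72 over 5 libraries, all tumour-bearing. In microglia it ran from 0.11 to 0.20 over 3 tumour-bearing libraries and was -0.08 and 0.14 in WT naïve and KO naïve, and in oligodendrocytes it ran from -0.16 to 0.54 over 8 libraries, with the highest value in KO early (22 cells). The hypoxia-induced sum rested on different genes by class, so that r is not the same measure in each. In tumour cells Mif had a median of 1150 CPM, beside 1712 for the other hypoxia-induced genes with Mif included. In oligodendrocytes Ndrg1 had 1150, beside 1539 for the same group. Cells of a library share its preparation and the fixed total of 2000 UMIs. At 1000 UMIs per cell the median r of tumour cells fell from 0.53 to 0.35.

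The 177 tumour cells with a Car9 UMI, from the 5 libraries with at least 10 such cells, were set beside the 2506 without one. The values given are unweighted averages of the means of the 5 libraries. Cells with Car9 held 9.44 UMIs of glycolytic enzymes against 4.58, and were higher in 5 of 5 libraries. Bnip3 was at 1.30 against 0.206 UMIs per cell, Egln3 at 0.170 against 0.0476 and Ldha at 2.94 against 1.28, each higher in 5 of 5 libraries. Ldhb, at 0.115 against 0.170, was higher in 0 of 5, and Hk2, at 0.0226 against 0.0564, in 2 of 5. Pfkm and Slc16a1 also had lower means in cells with Car9, and the other members had higher ones. At 1000 UMIs per cell only Slc16a1 stayed below, at 0.0224 against 0.0384. Of all pairs of members, Car9 and Bnip3 had the highest median r across tumour cells, 0.40 (0.31 to 0.67 over libraries). The pairs include WT early, where only 1 cell held a Car9 UMI. The r of that library, which enters the median and the range, rests on 1 cell. These values describe cells and carry no test.

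**Figure D5:**
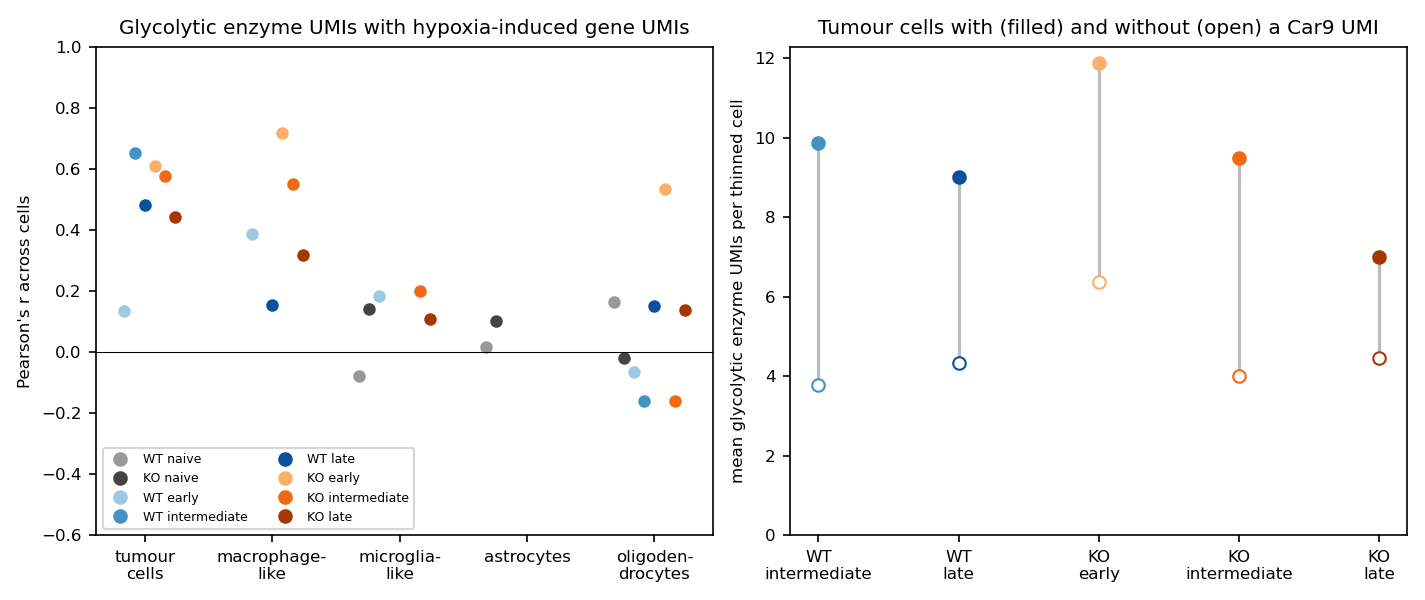
Single cells thinned to 2000 UMIs. Left, Pearson's r across cells between the summed UMIs of glycolytic enzymes and of hypoxia-induced genes (vertical axis) for each library (points) and class; right, mean glycolytic enzyme UMIs per tumour cell (vertical axis) with a Car9 UMI (filled) and without (open) in 5 libraries, where every filled point lies above the open one.

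Related genes outside the list give the frame, from 3 lists of 33 other glycolysis genes, 38 other hypoxia pathway genes and 16 enzymes of the tricarboxylic acid (TCA) cycle, of which 8, 14 and 13 were tested in the class fit. In macrophages against microglia (all genes, 11.8% higher and 9.87% lower), 2 of 8 other glycolysis genes were higher (Dlat at 1.22 and Pdha1 at 1.20) and 0 lower. Of the other hypoxia pathway genes 6 of 14 were higher, led by Vegfa at 3.66, the vascular growth factor, and Bhlhe40 at 3.19, and 2 were lower, among them Wsb1 at -0.98. Of the TCA cycle enzymes 5 of 13 were higher, led by Idh3a at 1.02 and Suclg1 at 0.74, and 0 lower. In tumour cells against microglia (all genes, 36.1% and 29.6%) the counts were near the background for the first 2 lists, with 4 higher and 2 lower of 8 (Bpgm at 2.82 and Pdha1 at 2.10, Hk3 at -6.16 and Mpc2 at -0.72), 6 and 5 of 14 (Plod2 at 6.09 and Anxa2 at 2.77, Hmox1 at -3.33) and 7 and 1 of 13 (Idh3a at 2.26 and Sucla2 at 1.22, Sdha at -1.23).

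Against glia, where 37.6% of all genes were higher and 26.3% lower in macrophages and 37.3% and 26.1% in tumour cells, the TCA cycle enzymes had in macrophages 1 higher (Sdhd at 1.18) and 8 lower of 13, led by Cs at -0.92. In tumour cells 3 were higher (Sdhd at 0.90 and Idh3g at 0.63) and 5 lower (Sdha at -2.26 and Sdhc at -0.87). The other hypoxia pathway genes were higher than in glia for 9 of 14 in macrophages (among them Hmox1 at 4.93, with Tfrc lower at -2.27) and for 7 of 14 in tumour cells (among them Plin2 at 2.97), with 2 lower (Mxi1 at -2.57 and Bhlhe40 at -1.18). Aldoc, the aldolase of astrocytes, was lower in both, at -4.09 in tumour cells and -3.97 in macrophages, among 2 and 4 of 8 other glycolysis genes that were lower, with Mpc2 at -1.98 and Bpgm at -3.28 next, beside 1 higher in each (Dlat at 0.65 and Hk3 at 4.67). Between tumour cells and macrophages (all genes, 37.3% higher and 32.3% lower), 4 of 8 were higher and 2 lower (Bpgm at 2.92 and Pdha1 at 0.90, Hk3 at -6.50 and Mpc2 at -0.83), 3 and 7 of 14 (Plod2 at 3.64 and Tfrc at 2.44, Hmox1 at -3.83 and Bhlhe40 at -3.09), and 4 and 1 of 13 (Idh3a at 1.24, Sdha at -1.49).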

How the data were processed

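Single cells of 6 GL261 tumours and of 2 naïve brain pools were sequenced by Drop-seq, giving 1 library for each genotype and condition. The authors deposited UMI counts per gene and cell barcode, which are not normalized. The submitters' processing notes name bcl2fastq 2.0, STAR and the builds GRCm38 and mm10, and the methods name the Drop-seq pipeline. The version of STAR is not given in the sources used here. Cell classes were rebuilt from the counts and may differ from the authors' own.

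Per library, the 1000 barcodes richest in UMIs, genes in at least 30 cells and cells with at least 1000 genes were kept. Cells were clustered by tSNE (Rtsne 0.17) and HDBSCAN (scikit-learn 1.9.0), and clusters were named from marker lists. The members and the 3 other lists were left out of the clustering. UMIs were summed per library and class with at least 5 cells, which dropped the astrocytes of WT intermediate. Sums were tested with edgeR 4.0.16 in R 4.3.3 (TMM scaling, filterByExpr, quasi-likelihood test, Benjamini-Hochberg adjusted p of 0.05 over all genes tested), 16 comparisons in all, after each fit was tested on simulated data. Differences between classes carry the SE of the log2 coefficient. For each comparison the members past the threshold were named, with the 2 largest changes each way of each other list for comparisons between classes, some of which are not reported here. The members and the lists were chosen with earlier results of these data known. Alternatives were DESeq2 1.42.0, total-UMI scaling, no filter on low counts, other clusterings (another tSNE seed, all genes, Leiden with leidenalg 0.10.2), at least 500 genes per cell, at least 10 cells per sum, doublets removed by Scrublet (scanpy 1.11.5), free tumour RNA subtracted, other covariates and leaving out each library. Exact 95% Poisson intervals and limits of 3 UMIs for a count of 0 cover counting error only.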

Additional observations from a re-analysis of the deposited data

How the results depend on the processing

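The counts of members called moved by over 1.5 times in these cases, with the cause not tested except that a fit without the filter tests all 34 members. Members higher in tumour cells than in microglia numbered 9 with free tumour RNA subtracted, 10 with total-UMI scaling, 18 without the filter, 15 in a fit of only those 2 classes and 8 without WT early. Without the filter the higher members numbered 16 in macrophages against microglia, 19 in tumour cells against glia, 21 in macrophages against glia and 8 in tumour cells against macrophages. That last comparison had 6 higher and 6 lower with total-UMI scaling, where Ldha reversed to 0.084, and 5 higher in a fit of only the 2 classes. In microglia, members higher with a tumour numbered 3 with free RNA subtracted, 3 without the filter, 0 without WT naïve and 2 without KO naïve. Single calls appeared without the filter in oligodendrocytes (1 lower) and in KO against WT macrophages (1 higher, and 1 with doublets removed), and 2 in late tumour cells without KO early. Leaving out 1 library at a time gave 4 to 8 higher and 4 to 4 lower for tumour cells against microglia, 8 to 11 and 2 to 3 for macrophages against microglia, 8 to 9 and 2 to 4 for tumour cells against glia, 11 to 12 and 2 to 3 for macrophages against glia, 2 to 4 and 9 to 11 for tumour cells against macrophages, 0 to 7 higher for microglia with a tumour, and 0 to 2 higher for late tumour cells. For single genes, 692 values kept direction and side of the threshold, 38 lost the threshold and 1 reversed, and with a library left out 369 kept both and 43 lost the threshold. Library and stage were blocks in the tests of class and of genotype, and without the stage block the counts for genotype stayed at 0. The alternatives for the tests of differences between genotypes were chosen after seeing the data. Depth limits the microglia and astrocyte sums most: a sum of 17330 UMIs cannot show a gene below about 173 CPM.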
